A study of Glycine max with 6 samples.

Results

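Glutamine synthetase was followed through 8 soybean genes, 6 classed as cytosolic (GS1) and 2 as plastid (GS2), out of 56044 genes in the deposited count table. The members were taken by their identifiers and not by their expression, but they were chosen with earlier results of these data known. Their classes were not checked against an annotation. The cytosolic genes were Glyma.07G104500, Glyma.09G173200, Glyma.11G215500, Glyma.18G041100, Glyma.02G244000 and Glyma.14G213300, and the plastid genes were Glyma.13G210800 and Glyma.15G102000. By their identifiers they lie on chromosomes 7, 9, 11, 18, 2 and 14 and on chromosomes 13 and 15. They were treated as 4 pairs of duplicated copies (7 with 9, 11 with 18, 2 with 14, and 13 with 15). Their positions and sequences were not analysed here.

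Leaves of wild-type soybean (Glycine max, cultivar BR16) grown in soil in a greenhouse were sampled at 20 days after germination (DAG; vegetative stage V3 in the study's methods) and at 80 DAG (reproductive stage R7), in biological triplicate. Disks came from the central leaflet of trifoliate leaves at the third and at the seventh position, and the methods do not assign these positions to the ages. Age, developmental stage and perhaps leaf position thus changed together and cannot be told apart, and the sample labels call both ages vegetative. All 6 libraries share the cultivar, the growth conditions and the depletion of ribosomal RNA.

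Glutamine synthetase joins ammonium to glutamate at the expense of ATP and makes glutamine, the entry point of inorganic nitrogen into amino acids. In leaves, the plastid enzyme is best known for recapturing the ammonium set free by photorespiration and that made by nitrate reduction in the chloroplast. The cytosolic enzymes are best known for making glutamine for transport in the vascular tissue, also while nitrogen is withdrawn from old leaves. The comparison of 80 with 20 DAG was designed by the study to find genes whose expression changes with natural leaf senescence.

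The libraries held 10758425 to 15883253 counts. Replicates of 1 age differed by a root mean square of 0.36 to 0.81 on the log2 scale over the tested genes, and libraries of different age by 1.35 to 1.79. Replicate 1 of 20 DAG was the farthest from its own group, at 0.81 from replicate 2 and 0.62 from replicate 3, whereas these lay 0.45 apart. The plastid results are also given without it where it moved them. No table used here links the soybean identifiers to leaf marker genes, so that the tissue label was not checked.

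Of the 8 genes, 7 had enough counts to be tested, and 4 of these rose between 20 and 80 DAG, all of them cytosolic: Glyma.09G173200, Glyma.11G215500, Glyma.18G041100 and Glyma.02G244000. None fell past the threshold, a Benjamini-Hochberg adjusted p under 0.05 in the quasi-likelihood test of edgeR fitted over all 30058 tested genes. Both plastid genes had lower means at 80 DAG, with adjusted p just above that threshold. Such calls were common, since 49.1% of all tested genes passed the threshold, 23.1% upward and 26% downward. In the 4 genes that rose, every 80 DAG library was above every 20 DAG library, which held for 29.6% of all tested genes, and 31.2% were separate in the opposite direction. The median log2 fold change was 2.77 over the 5 tested cytosolic genes and −1.31 over the 2 plastid genes, beside −0.02 over all tested genes. In whole-leaf RNA, a change in the number of cells that express a gene and a change in its RNA per cell cannot be told apart.

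**Figure D1:**
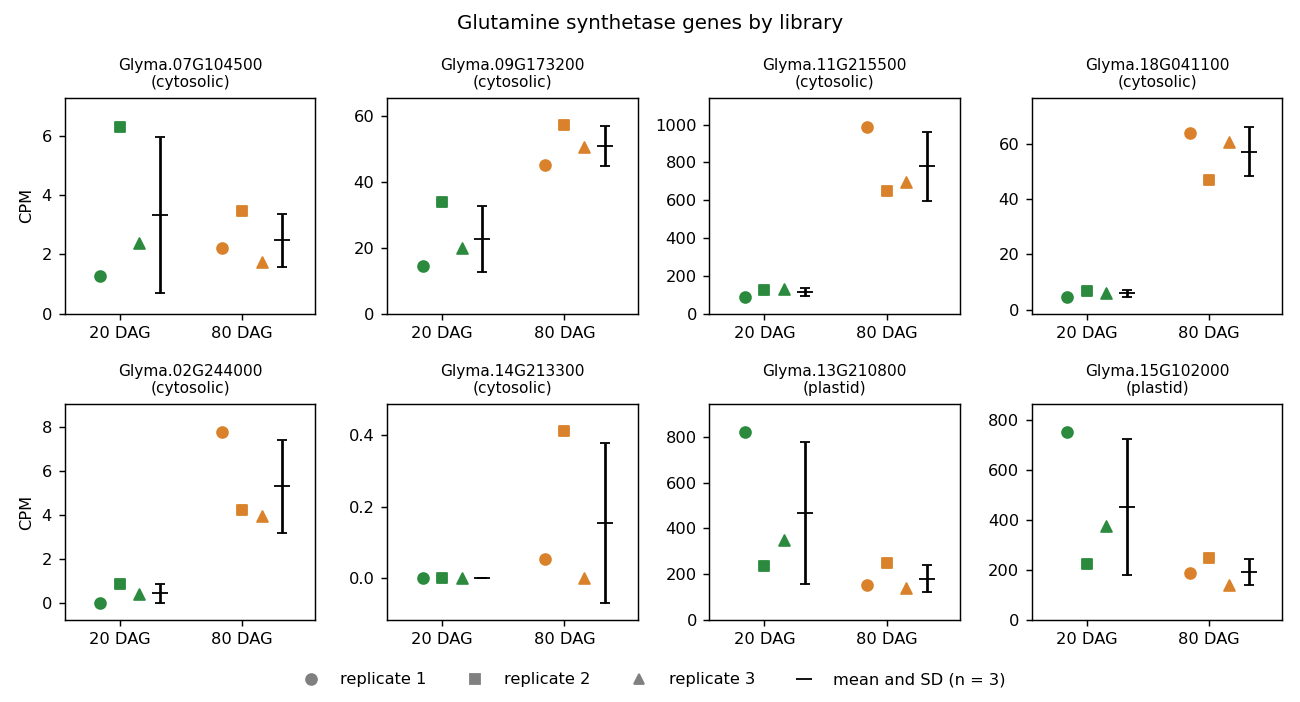
Expression of the 8 glutamine synthetase genes in CPM (counts scaled to a common library size of 1000000), with 1 point per library (20 DAG green, 80 DAG orange, symbols for replicates 1 to 3) and the mean with its SD (n = 3) beside them; each panel has its own linear axis. The 80 DAG points lie above all 20 DAG points in Glyma.09G173200, Glyma.11G215500, Glyma.18G041100 and Glyma.02G244000, and the plastid genes are highest in replicate 1 of 20 DAG.

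Among the cytosolic genes, Glyma.11G215500 supplied the most counts. Its raw counts were 841, 1590 and 1296 at 20 DAG and 18188, 7914 and 10075 at 80 DAG. Expression in CPM, where the library size is scaled by the TMM factors of edgeR, was 89.5, 124 and 129 at 20 DAG against 987, 651 and 699 at 80 DAG. The lowest library of 80 DAG thus stood far above the highest of 20 DAG. The mean rose 6.82-fold, from 114 ± 21.6 to 779 ± 182 CPM (SD, n = 3 each). On the log2 scale this was 2.77 with a standard error (SE) of 0.29 and an adjusted p of 0.000421 (edgeR), and 4.53% of the tested genes had a higher one.

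Glyma.18G041100, its copy on chromosome 18, had the larger estimated fold change. The exact permutation test of the split between the copies, two-sided, gave p = 0.1. As this is the smallest p that 3 libraries against 3 can give, the test could not settle this difference. The counts of Glyma.18G041100 went from 44, 89 and 60 to 1179, 572 and 877. In CPM these were 4.68, 6.93 and 5.99 at 20 DAG and 64.0, 47.1 and 60.8 at 80 DAG. The replicates of each age were close, and the ages were far apart. The mean went from 5.87 ± 1.13 to 57.3 ± 8.99 CPM (SD, n = 3 each), or 3.28 on the log2 scale (SE 0.22, edgeR adjusted p = 9.31e-05). Only 406 of the 30058 tested genes had a smaller p, and 3.13% had a higher log2 fold change.

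Glyma.02G244000, a cytosolic gene with few counts, had 0, 11 and 4 counts in young leaves and 143, 51 and 57 in old leaves, or 0, 0.856 and 0.399 CPM against 7.76, 4.20 and 3.95 CPM. It was close to undetected in young leaves and counted in every old leaf. Its mean was 0.418 ± 0.428 CPM at 20 DAG and 5.30 ± 2.13 CPM at 80 DAG (SD, n = 3 each). Its log2 change of 3.54 (SE 0.68, edgeR adjusted p = 0.00478) was the highest of the 7 tested members, but its SE was also the largest of these, and it spans the value of Glyma.18G041100. Glyma.14G213300, taken as its copy, had no count at 20 DAG and 1, 5 and 0 counts at 80 DAG. The filter on low counts removed it. Without the filter its adjusted p was 0.206 in edgeR and 0.417 in DESeq2. A count of 0 allows up to 3 counts, or 0.233 to 0.319 CPM in the 20 DAG libraries, so that a change of this gene was not detectable at this depth.

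Glyma.09G173200 rose by less. From 135, 437 and 199 counts it went to 832, 698 and 731, or 14.4, 34.0 and 19.9 CPM against 45.1, 57.4 and 50.7 CPM. Replicate 2 of 20 DAG was the nearest to the old leaves and still below them. The mean increased from 22.7 ± 10.1 to 51.1 ± 6.16 CPM (SD, n = 3 each), or 1.16 on the log2 scale (SE 0.32, edgeR adjusted p = 0.0194). Without replicate 3 of 20 DAG the log2 fold change was 1.07 and the adjusted p 0.0781, no longer past the threshold, and 15.3% of the tested genes had a higher log2 fold change in the full data.

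Its copy on chromosome 7, Glyma.07G104500, was the single tested cytosolic gene without a rise. Its counts were 12, 81 and 24 in young and 41, 42 and 25 in old leaves, which is 1.28, 6.30 and 2.40 CPM against 2.22, 3.46 and 1.73 CPM. The ages overlapped, and replicate 2 of 20 DAG alone was above all others. The mean was 3.33 ± 2.64 CPM at 20 DAG and 2.47 ± 0.887 CPM at 80 DAG (SD, n = 3 each). Its log2 change of −0.47 (SE 0.57, edgeR adjusted p = 0.522) was smaller than its standard error, and without replicate 2 of 20 DAG it was 0.41 (adjusted p = 0.483). No direction can be given for this gene.

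**Figure D2:**
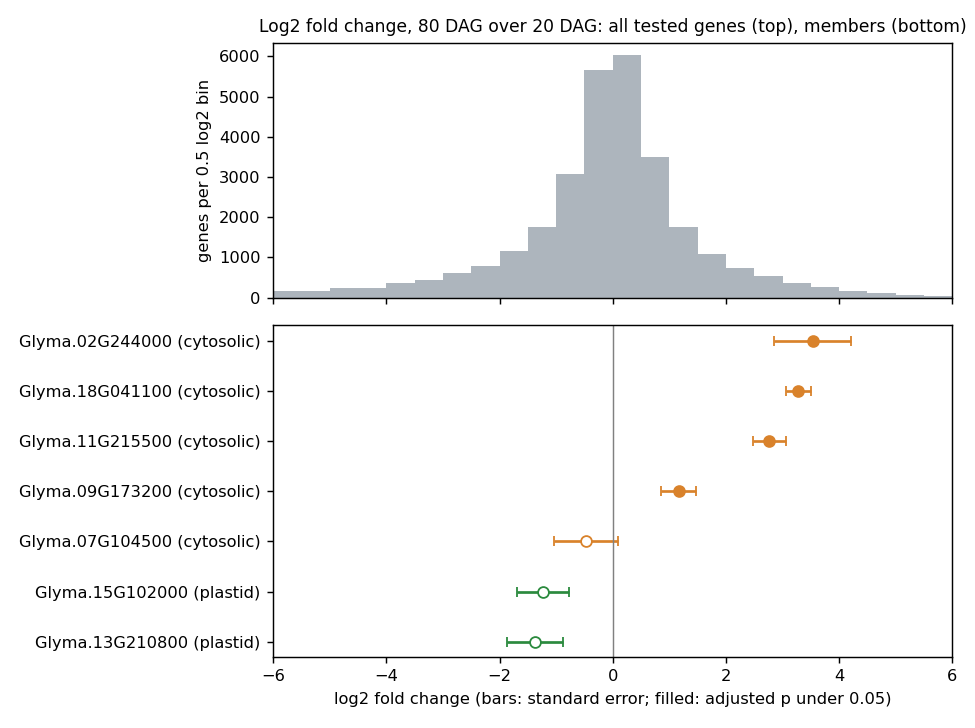
Log2 fold changes of 80 over 20 DAG. The upper panel counts all tested genes in bins of 0.5, and the lower panel gives the 7 tested members with their standard errors, cytosolic in orange and plastid in green, filled where the adjusted p was under 0.05. The 4 filled points lie between 1.16 and 3.54, and the 2 plastid points at −1.24 and −1.37.

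The plastid genes varied widely between replicates of young leaves. For Glyma.13G210800, the young libraries held 7707, 3015 and 3484 counts and the old ones 2808, 3012 and 2031. In CPM it stood at 821, 235 and 348 in the young leaves and at 152, 248 and 141 in the old leaves. Replicate 1 of 20 DAG was far above the other libraries, and replicate 2 of 20 DAG was slightly below replicate 2 of 80 DAG, so that the ages overlapped. This overlap depended on the TMM factors, 1.09 for replicate 2 of 20 DAG and 0.936 for replicate 2 of 80 DAG. Divided by the library totals alone, replicate 2 of 20 DAG was the higher, and the ages did not overlap. The mean was 468 ± 311 CPM at 20 DAG and 180 ± 58.7 CPM at 80 DAG (SD, n = 3 each), 2.59-fold lower. With −1.37 on the log2 scale (SE 0.50, edgeR adjusted p = 0.0545) it was not past the threshold.

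Glyma.15G102000, the other plastid gene, gave nearly the same picture, with 7090, 2900 and 3758 counts in young and 3479, 3002 and 2014 in old leaves. Its CPM were 755, 226 and 375 against 189, 247 and 140. The order of the 20 DAG libraries was that of its copy, and again replicate 2 of both ages overlapped. From 452 ± 273 to 192 ± 53.8 CPM (SD, n = 3 each), it differed by −1.24 on the log2 scale (SE 0.46, edgeR adjusted p = 0.0619). The square root of edgeR's dispersion, a measure of the relative spread between replicates, was 0.43 for Glyma.13G210800 and 0.41 for Glyma.15G102000, against a median of 0.215 over all tested genes. Among the cytosolic genes it was as high in the sparsely counted Glyma.07G104500 (0.478) and Glyma.02G244000 (0.430) and lower in Glyma.09G173200 (0.293), Glyma.11G215500 (0.264) and Glyma.18G041100 (0.21).

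The call on the plastid genes depended on single libraries and on the tool. DESeq2, the package named in the study's methods, gave both an adjusted p under 0.05 (Glyma.13G210800 0.0188, Glyma.15G102000 0.0264), with log2 fold changes of −1.36 and −1.22. Leaving out replicate 2 of 20 DAG gave −1.69 and −1.56, with adjusted p of 0.0223 and 0.0196 in edgeR. Without replicate 1 of 20 DAG, the library farthest from its group, the log2 fold changes were −0.69 and −0.65 and the adjusted p 0.126 and 0.155. The direction was downward for both genes in each of 13 alternatives, with adjusted p under 0.05 in 3 of them for Glyma.13G210800 and in 2 for Glyma.15G102000.

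**Figure D3:**
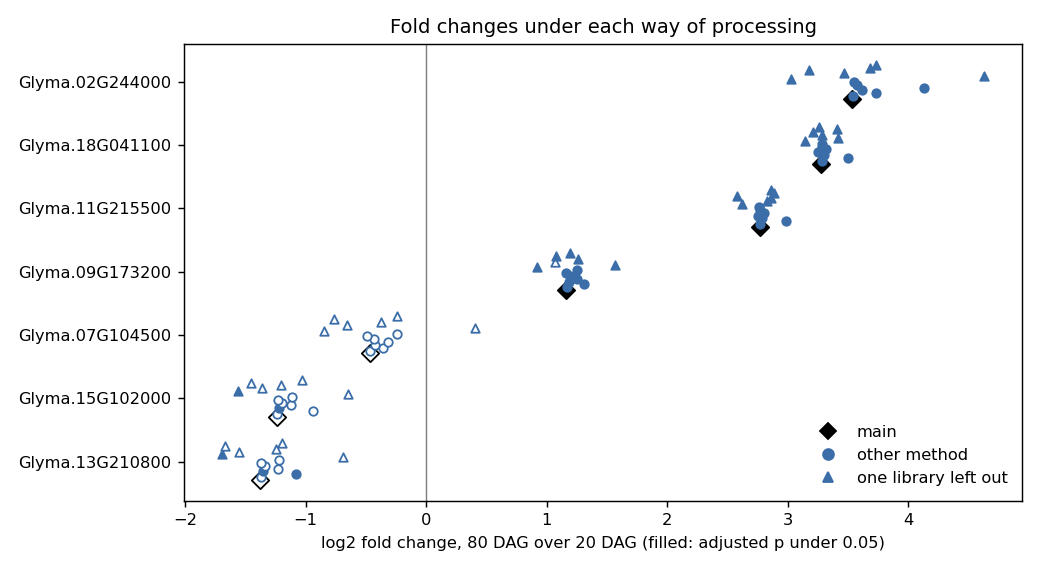
Log2 fold change of each tested member under the main processing (diamonds), under other normalizations, filters, tests and the replicate block (circles) and with 1 library left out (triangles), filled where the adjusted p was under 0.05. Glyma.11G215500 and Glyma.18G041100 are filled throughout, between 2.58 and 2.99 and between 3.14 and 3.50. The plastid genes stay below 0 and are filled in 3 and 2 alternatives.

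Within a library, the 2 classes of glutamine synthetase can be set against each other without any scaling between libraries. The summed plastid counts were 14797, 5915 and 7242 at 20 DAG and 6287, 6014 and 4045 at 80 DAG. The summed cytosolic counts were 1032, 2208 and 1583 at 20 DAG and 20384, 9282 and 11765 at 80 DAG. Young leaves thus gave more plastid than cytosolic counts in each library, and old leaves fewer. This reversal rested on Glyma.11G215500. The other cytosolic genes together gave fewer counts than the plastid genes in every library of both ages. Their log2 ratio to the plastid counts was −6.28, −3.26 and −4.66 at 20 DAG and −1.52, −2.14 and −1.26 at 80 DAG. It was thus higher in old leaves without overlap, but below 0 throughout. Counts are not divided by transcript length here, so that the ratio at 1 age is not a ratio of transcript numbers, whereas the lengths of the genes are the same at both ages.

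The log2 ratio of plastid to cytosolic counts was 3.84, 1.42 and 2.19 in the libraries of 20 DAG and −1.70, −0.63 and −1.54 in those of 80 DAG. The ages did not overlap. The mean was 2.49 ± 1.24 at 20 DAG and −1.29 ± 0.58 at 80 DAG, a difference of −3.77 (SD, n = 3 each; exact permutation test, two-sided, p = 0.1, the smallest that 3 libraries against 3 can give). Without replicate 1 of 20 DAG the difference was −3.10. As a share, plastid counts made up 82.8% ± 10.4 of all glutamine synthetase counts at 20 DAG and 29.5% ± 8.57 at 80 DAG (SD, n = 3 each), with a lowest share of 72.8% in young leaves (95% Wilson interval 71.8% to 73.8%) and a highest of 39.3% in old leaves (38.5% to 40.1%). These intervals cover counting error only. Without replicate 1 the mean share at 20 DAG was 77.4%.

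In CPM, the summed cytosolic genes went from 147 ± 32.5 to 895 ± 184 (SD, n = 3 each), a mean difference of 2.62 on the log2 scale with no overlap (exact permutation test, two-sided, p = 0.1). The summed plastid genes went from 920 ± 583 to 372 ± 111 CPM, a difference of −1.16 on the log2 scale with overlapping ages (p = 0.2 in the same exact test). This overlap, as for the single plastid genes, depended on the TMM factors and was absent with library totals alone. Leaving out replicate 1 of 20 DAG changed the plastid difference to −0.67 and the cytosolic one to 2.42. The sum over all 8 genes was 1685, 632 and 881 CPM at 20 DAG and 1447, 1259 and 1096 CPM at 80 DAG. The total did not separate the ages (exact permutation test, two-sided, p = 0.6), since the young libraries spanned the old ones.

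**Figure D4:**
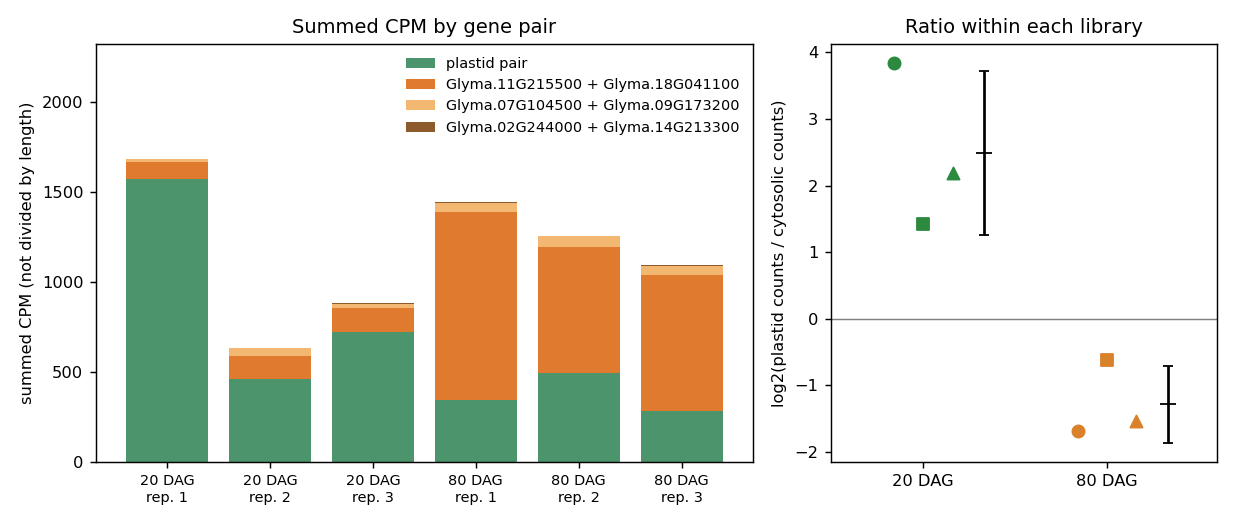
Left, summed CPM of the plastid pair and of the 3 cytosolic pairs in each library, stacked and not divided by length. Right, log2 ratio of plastid to cytosolic counts within each library, with the mean and SD (n = 3; circle, square and triangle are replicates 1, 2 and 3). The ratio lies between 1.42 and 3.84 at 20 DAG and between −1.70 and −0.63 at 80 DAG.

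The 3 cytosolic pairs took different shares of the cytosolic counts. The pair of Glyma.11G215500 and Glyma.18G041100 held 85.8%, 76.0% and 85.7% of them at 20 DAG and 95.0%, 91.4% and 93.1% at 80 DAG. The pair of Glyma.09G173200 and Glyma.07G104500 took 14.2%, 23.5% and 14.1% in young leaves and 4.28%, 7.97% and 6.43% in old leaves. Neither set of shares overlapped between the ages (exact permutation test, two-sided, p = 0.1 for each). Glyma.02G244000 and Glyma.14G213300 together never exceeded 0.706%. The other shares are thus close to complements of the same total, and their tests are not separate results. The lower share of Glyma.09G173200 and Glyma.07G104500 was not a lower level. With these copies added up, the log2 change was 1.03 (edgeR adjusted p = 0.0394).

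The split of counts between the copies of a pair was compared next. Of the counts of Glyma.09G173200 and Glyma.07G104500, the former gave 88.5% ± 3.79 at 20 DAG and 95.4% ± 1.19 at 80 DAG (SD, n = 3 each). Of the counts of Glyma.11G215500 and Glyma.18G041100, the former gave 95.1% ± 0.442 at 20 DAG and 93.1% ± 0.976 at 80 DAG. The point values of both pairs were separate between the ages. The exact permutation p was 0.1 each, and 0.15 after Benjamini-Hochberg adjustment over the 3 pairs tested. In both pairs the nearest libraries of different age had overlapping 95% Wilson intervals for counting error. These were 86.3% to 95.3% (20 DAG replicate 1) and 92.4% to 95.8% (80 DAG replicate 2) in the first pair. In the second they were 93.5% to 95.7% (20 DAG replicate 2) and 93.6% to 94.2% (80 DAG replicate 1). The log2 ratio of the copies differed by 1.43 in the first pair and by −0.53 in the second. The plastid copies had close to equal counts, with a share of Glyma.13G210800 of 50.4% ± 2.05 at 20 DAG and 48.3% ± 3.17 at 80 DAG (exact permutation test, two-sided, p = 0.5). Their ratio ranged from 0.807 to 1.09 over the 6 libraries. How reads that match both copies of a pair were assigned is not given in the sources used here, which makes the split between copies less certain than their sum. With the copies added up before the test, the pair on chromosomes 7 and 9 had a log2 change of 1.03 (edgeR adjusted p = 0.0394), the pair on 11 and 18 one of 2.80 (adjusted p = 0.00040), the pair on 2 and 14 one of 3.58 (adjusted p = 0.00432) and the plastid pair one of −1.30 (adjusted p = 0.0618).

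**Figure D5:**
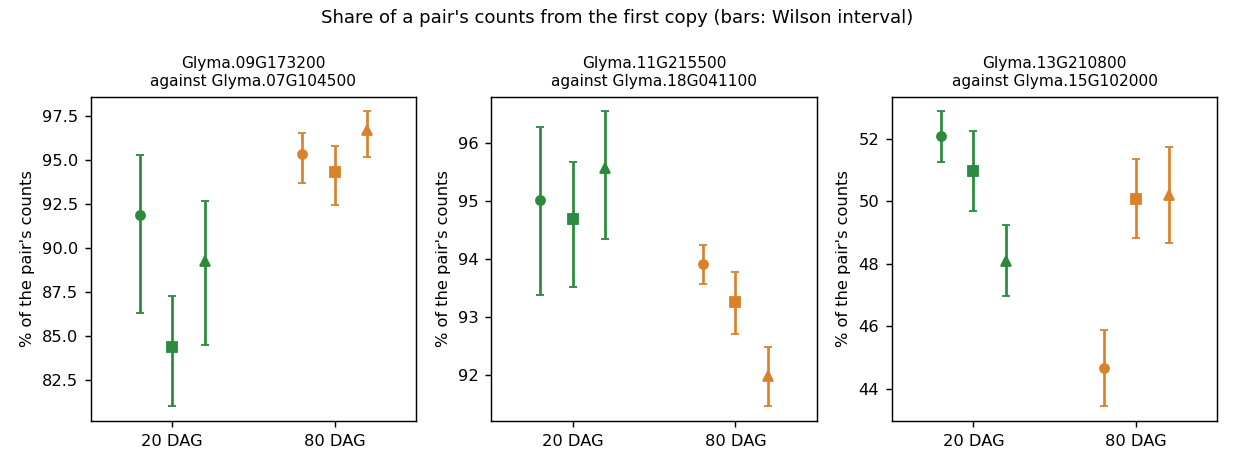
Share of a pair's counts that came from the copy named first, in each library (20 DAG green, 80 DAG orange; circle, square and triangle are replicates 1, 2 and 3), with the 95% Wilson interval for counting error. The axes do not start at 0. The points of the 2 ages are separate in the panels of Glyma.09G173200 and Glyma.11G215500, but the nearest intervals overlap there. In the panel of Glyma.13G210800 the points themselves overlap.

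For the member with the highest mean CPM over the 6 libraries in each class, the genes most like it were sought among 12684 other tested genes with a mean of at least 10 CPM, by Pearson's correlation of log2(CPM + 0.5) over the 6 libraries. This is a description of 6 libraries that fall into 2 ages. The plastid copies hardly differed in mean CPM (324 for Glyma.13G210800 and 322 for Glyma.15G102000), so that the choice between them is close to arbitrary. For Glyma.11G215500 the most alike genes were Glyma.07G072100 (r = 0.999, log2 change 0.95, SE 0.15) and Glyma.16G064900 (r = 0.999, log2 change 3.87, SE 0.38). For Glyma.13G210800 they were Glyma.19G191200 (r = 0.998, log2 change −0.62, SE 0.26) and Glyma.01G226700 (r = 0.998, log2 change −0.99, SE 0.35). Without replicate 1 of 20 DAG, the r with Glyma.13G210800 was 0.994 for Glyma.19G191200 and 0.995 for Glyma.01G226700. Close likeness was frequent, as 20.0% of these genes had an r above 0.9 with Glyma.11G215500 and 9.04% with Glyma.13G210800.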

How the data were processed

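Paired-end reads of stranded, rRNA-depleted leaf RNA were made by the authors. They deposited raw whole-number counts per gene of the Wm82.a2.v1 models (named in the row identifiers), with no normalization. The submitters' processing notes name CASAVA 1.7, Bowtie2 and DESeq2; the counting program, its use of strand and its treatment of reads matching several genes are not given in the sources used here.

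All 6 columns were matched to samples by title (0 unmatched). Genes were tested between ages with edgeR 4.0.16 (R 4.3.3), TMM factors and the default filterByExpr filter. Standard errors are the absolute log2 fold change over the square root of F. Ratios and shares were compared with exact permutation tests (scipy 1.17.1). The code was tested on simulated data. Alternatives were DESeq2 1.42.0, limma-voom (limma 3.58.1), other scalings, filters and thresholds, a replicate block, summed copies and each library left out. The shares and correlations with libraries left out were added after seeing the data.

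The members and lists were chosen with earlier results of these data known. All 8 members were to be named, with the 3 genes most like the member of highest mean CPM in each class; as no table names these genes, the printed identifiers were limited to the first 2. Planned lists of other nitrogen genes, leaf, nodule and seed markers, coding lengths, protein identities and promoter motifs were not used here, because the gene table at hand does not link these identifiers to names. It describes another assembly, so that no coordinates are given.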

Additional observations from a re-analysis of the deposited data

How the results depend on the processing

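The number of glutamine synthetase genes past the threshold was 4 and lay between 3 and 6: it was 6 with DESeq2, 6 with the copies added up (members of the called pairs), 5 with library totals alone, 3 with at least 10 counts in every library, 3 at an adjusted p under 0.01, and 3 to 6 with 1 library left out. Glyma.07G104500 turned upward to 1.03 with the copies added up, where its more abundant copy sets the value, and ranged from −0.85 to 0.41 with 1 library left out. Glyma.13G210800 also passed the threshold with library totals alone (adjusted p = 0.0416), a scaling under which the median log2 change over the tested genes was 0.21 in place of −0.02. Glyma.02G244000 could not be tested with at least 10 counts in every library. The difference in the log2 ratio of plastid to cytosolic counts ranged from −4.31 to −3.10 with 1 library left out, and was −3.77 without the pair Glyma.02G244000 and Glyma.14G213300. That pair held at most 0.706% of the cytosolic counts, so that leaving it out could hardly change the ratio. Libraries with the same replicate number did not deviate together (correlations of their deviations across genes from −0.33 to 0.07), so that the numbers were not taken to pair them; with the replicate block 4 members were called, and it changed no call. The alternatives with coding length and with lists of other nitrogen genes were not run. Groups of 3 libraries limit the precision and the lowest exact p is 0.1.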

Other observations

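Within each age, the library with the highest summed plastid CPM had the lowest summed cytosolic CPM. At 20 DAG this was replicate 1, with 1575 CPM of plastid and 110 CPM of cytosolic genes, beside 460 and 172 CPM in replicate 2 and 723 and 158 CPM in replicate 3. At 80 DAG it was replicate 2, with 495 and 764 CPM, beside 341 and 1106 CPM in replicate 1 and 280 and 816 CPM in replicate 3. Replicate 1 of 20 DAG and replicate 2 of 80 DAG were also the farthest from their own group over all tested genes. Replicate 2 of 80 DAG lay 0.58 and 0.59 (root mean square on the log2 scale) from the others of its age, which were 0.36 apart. Across genes, which are not independent replicates, the deviation of replicate 1 of 20 DAG from its group mean was compared with that of replicate 2 of 80 DAG. Their correlation was 0.36, the highest of the 9 pairs of libraries of different age. The next was 0.28, for replicate 2 of 20 DAG with replicate 3 of 80 DAG. As deviations are taken from group means, the 9 values depend on each other, and this pair was picked from them. A cause was not tested.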
